A study of Xenopus laevis with 6 samples.

Results

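The genes described here are the DNA replication and mitosis genes of Xenopus laevis, read in flank tissue that contains the kidney rudiment, with and without bhh. They were chosen by name. A probe set belonged to the set when it carried 1 gene symbol that, without its .L or .S ending, matched a name listed here. Replication names were minichromosome maintenance (mcm), origin recognition complex (orc) and GINS genes (gins), the sliding clamp or its loader (pcna, rfc) and primases (prim). Others were cell division cycle or cyclin-dependent kinase genes (cdc, cdk) and cyclins of class A, B or E. The rest were mitotic kinases (aurk, plk, ttk) and checkpoint or centromere genes (bub, mad2, cenp). The GTPase gene cdc42 and the genes named after it were left out (13 probe sets for 7 symbols). Of the 15611 probe sets on the array, 123 met the rule, for 102 genes. X. laevis carries many genes as a pair of copies from an ancient genome duplication, and .L and .S mark the copies of such a pair.

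Pronephric explants were cut from the flanks of embryos at stage 24. The samples are labelled as untreated or as treated with bhh (banded hedgehog), one of the secreted hedgehog ligands. Both groups comprised 3 samples of 300 pooled explants, with 1 Affymetrix array per sample. The labels give no mock-treated group, no strain and no route by which bhh was supplied, so bhh cannot be told apart from the procedure of treatment. The explants also held other tissue: some muscle and epidermis markers gave bright signals, with untreated means of 27353 for mylpf.L and 32824 for itln1.L. Others were dimmer, such as myf5.L (167) and tp63.L (27.6).

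A cell copies its genome once per cycle. In G1 the origin recognition complex, Cdc6 and Cdt1 load the MCM2-7 helicase onto DNA, a step called licensing, and in S phase GINS and Cdc45 activate it while PCNA, its loader RFC and the primases serve the fork. Cyclins E and A drive S phase, cyclin B with Cdk1 drives entry into mitosis, the kinetochore and the spindle checkpoint hold chromosomes until all are attached, and the anaphase-promoting complex with Cdc20 ends mitosis. Many of these transcripts are supplied to the egg by the mother and are later made by the embryo, and hedgehog ligands are known to promote proliferation in several tissues.

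The deposited values are MAS5 signals, linear intensities with 1 value per probe set and array, and log2 signals were compared with limma. Array medians lay between 148.7 and 169.2. The dimmest 25% of probe sets were not tested, which left 11618. Of the genes chosen, 88 had at least 1 tested probe set (106 probe sets), and 14 had none. The 17 untested probe sets had signals between 2.0 and 65.9, and 14 of them had both group means under 37.6. Under that level lay 95% of the signals, pooled over all arrays, of 44 of the non-Xenopus control probe sets. The tested set therefore holds the brighter genes. Just under the limit lay cdc25a.L (its dimmer probe set), ttk.S and ccna1.L, with geometric mean signals of 46.5, 44.7 and 34.4, and just above it lay a probe set of cdc23.L (47.2), ccna1.S (49.6) and a second one of cdc23.L (52.6).

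None of the 106 tested probe sets of replication and mitosis genes passed the limma test at an adjusted p under 0.05, where 1.38% of all tested probe sets did (160 of 11618, with 0.74% higher and 0.637% lower). Without adjustment, 5 had a p under 0.05, 2 higher and 3 lower, or 4.72% against 12.2% of all tested probe sets (6.4% higher and 5.81% lower). The 2 groups of arrays did not overlap for 3 probe sets that were higher and 4 that were lower, or 6.6%, against 18.3% of all (9.3% higher and 9.01% lower). Counted by each gene's brightest probe set, the separated genes were cdc6.L, cdc20.L and aurka.L on the higher side and gins1.S and bub3.L on the lower side. The arrays carry replicate numbers 1 to 3 in both groups, and the labels do not say what these stand for. Deviations from the group mean correlated between the arrays numbered 1 (r = 0.407). Numbers 2 and 3 were hardly told apart (r = 0.178 and 0.298 for the same number, 0.173 and 0.147 crossed). For some genes below, the direction in same-numbered pairs is given as description only. How many of all tested probe sets had 3 of 3 pairs in 1 direction was not counted. When the fit took the replicate number as a block, cdc6.L and ccna2.L passed, both higher in treated explants (2 probe sets). That is 1.89% of those tested here, against 6.31% of all tested probe sets in that fit (3.65% higher and 2.66% lower).

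The sizes were small. Counting the brightest tested probe set of each gene, 47 of 88 genes had a log2 fold change above 0 and 41 below, with a median of 0.05 and a range from -0.41 to 0.59. The median over all tested probe sets was 0.00. The median size without sign was 0.13, or 1.09-fold, against 0.17, or 1.13-fold, over all. Changes smaller than 0.25 on the log2 scale were found for 69 of the 88 genes (78.4%, against 65.6% of all), and 1 gene, cdc6.L, lay beyond 0.5 (1.14%, against 8.92%). A missed threshold does not show that a gene was unchanged, so the intervals matter here. The 95% interval of the log2 fold change, not adjusted for the number of genes, stayed within 2-fold either way for 85 of 88 genes (96.6%, against 88.7% of all tested probe sets). It stayed within 1.5-fold for 50 (56.8%, against 43.7%). The 3 genes whose interval reached beyond 2-fold were cdc6.L (up to 1.03 on the log2 scale), cdc23.L (down to -1.09) and cdc123.S (down to -1.02). Members were brighter than most probe sets, 58 of 88 lying above the median signal of all tested, and the part of brightness in these shares was not tested.

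**Figure D1:**
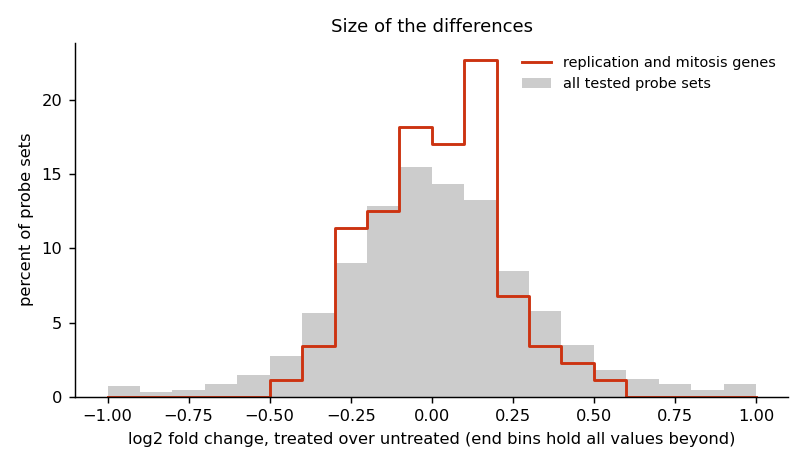
Distribution of the log2 fold change, treated over untreated (x axis, bins of 0.1, values beyond 1 in the end bins), as the percent of probe sets in each bin (y axis). Grey bars show all 11618 tested probe sets and the red line the brightest probe set of the 88 tested replication and mitosis genes, of which 69 lie within 0.25 of 0.

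**Figure D2:**
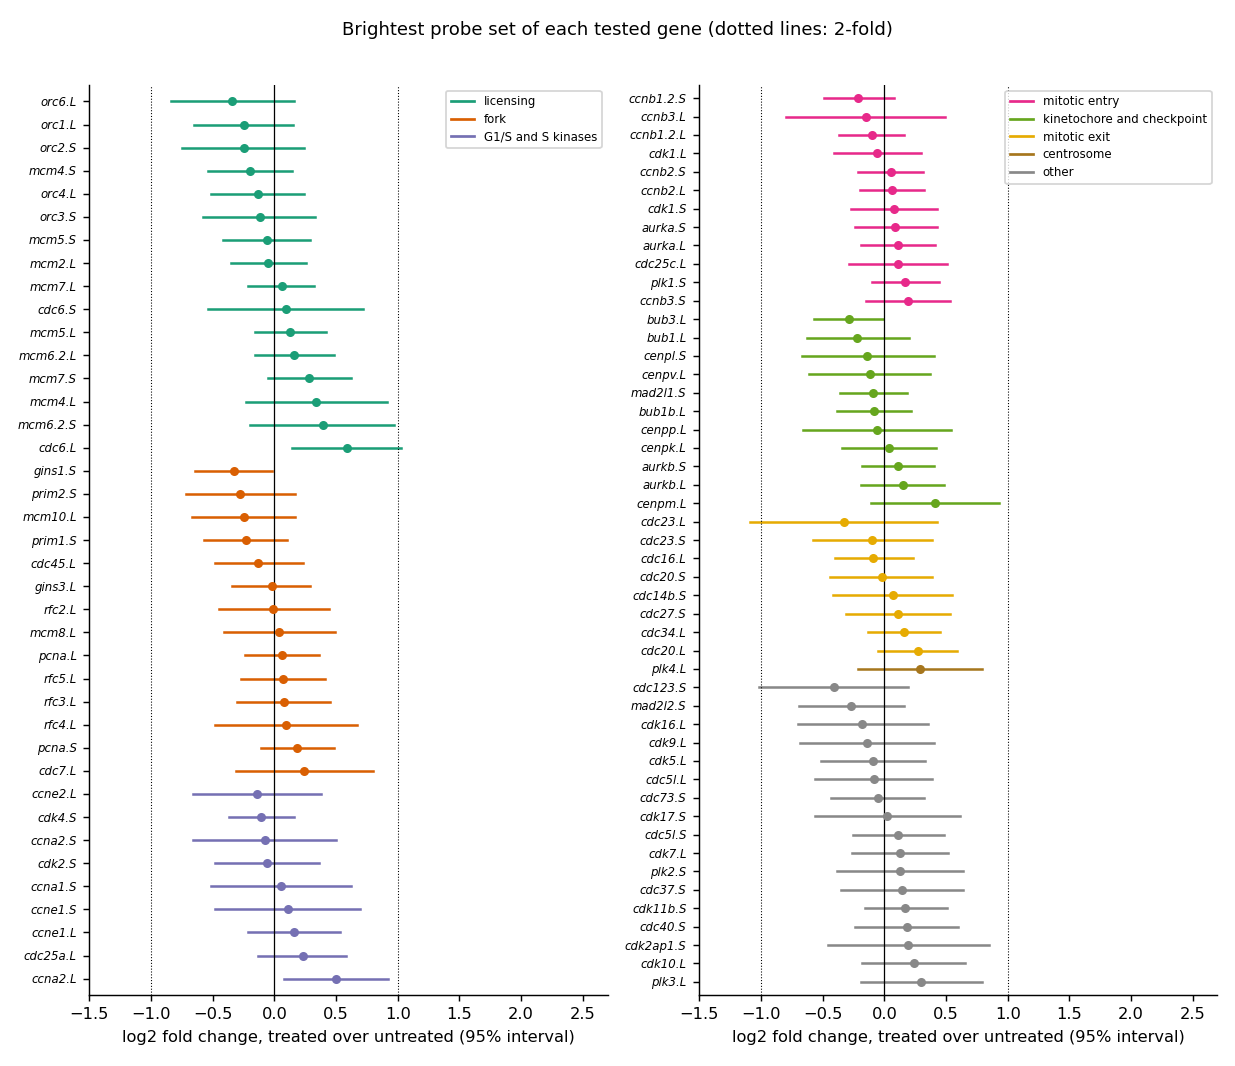
Log2 fold change, treated over untreated (x axis, points) with its unadjusted 95% interval from limma (lines) for the brightest probe set of each of the 88 tested genes, coloured by class. Dotted lines mark a 2-fold change, and 85 of the 88 intervals lie between them.

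Among the brightest probe sets of the 88 genes, the largest difference was in a licensing gene, cdc6.L. None of the 16 tested licensing genes passed in the unblocked fit of all arrays with equal weight. The product of cdc6 joins the origin recognition complex and helps to load the helicase. Untreated arrays 1, 2 and 3 gave cdc6.L signals of 365, 568 and 579, against 605, 817 and 824 with bhh. All treated arrays lay above all untreated ones, and each treated array lay above the untreated array of its number by 0.73, 0.52 and 0.51 on the log2 scale. The means were 504 ± 121 and 749 ± 124 (SD, n = 3 each), and the log2 fold change was 0.59 ± 0.20 (SE), or 1.5-fold, with a limma adjusted p = 0.257. With the replicate number as a block the SE was 0.12 and the adjusted p = 0.00617. It also passed with array weights (adjusted p = 0.0302) and without both arrays numbered 1, a setting chosen after seeing the data (0.0294). In these 2 settings 657 and 581 of all 11618 tested probe sets passed, and 2 and 4 of the 106 tested here. When single arrays were left out of the fit without the block, cdc6.L did not pass, with limma adjusted p from 0.111 to 0.637. The blocked fit was not repeated with arrays left out.

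The product of cdc6 loads the MCM2-7 helicase. For its 9 tested genes, 6 log2 fold changes were above 0 and 3 below, from -0.20 to 0.39, with a median of 0.13. mcm4.L gave 388, 632 and 764 untreated and 528, 802 and 901 treated. The groups overlapped, although each treated array exceeded its same-numbered untreated one (log2 fold change 0.34 ± 0.26, adjusted p = 0.651, or 0.098 when blocked). mcm7.S gave 350, 471 and 381 untreated and 482, 467 and 504 treated, a log2 fold change of 0.28 ± 0.15 with a 95% interval from -0.05 to 0.62, and the groups overlapped at 471 and 467. Its other copy, mcm7.L, gave 2679, 2630 and 2745 untreated and 2670, 2709 and 3008 treated. Its 95% interval ran from -0.21 to 0.32, and the groups overlapped.

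X. laevis has an mcm6 gene used in the egg (mcm6.L, named mmcm6 in RefSeq for maternal) and another used by the embryo (mcm6.2, named zmcm6 for zygotic). mcm6.L gave 2.0, 13.6 and 14.5 untreated, and its treated signals averaged 22.7 ± 3.45 (SD, n = 3). All 6 signals lay under the control level of 37.6. The gene fell among the dimmest probe sets and was not tested, and it was singled out after its values were seen. The zygotic copy mcm6.2.L had mean signals of 1103 ± 146 untreated and 1232 ± 136 treated (SD, n = 3 each), with a log2 fold change of 0.16 ± 0.14. The other zygotic copy, mcm6.2.S, gave 350, 485 and 485 untreated and 353, 672 and 774 treated at its brightest probe set, with the treated arrays 2 and 3 above all others (log2 fold change 0.39 ± 0.26). It passed without both arrays numbered 1 (adjusted p = 0.0242), and its dimmer probe set had the other sign (-0.20 ± 0.25).

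All 5 tested subunits of the origin recognition complex had log2 fold changes below 0, between -0.34 and -0.12, and none passed with or without the block. Of all tested probe sets, 5751 of 11618 lay below 0, and the complex was not tested as a set. Array 1 was the highest in both groups for 3 of the 5 (60%, against 19.8% of all tested probe sets). The subunit gene with the smallest p, orc6.L, gave 162, 275 and 241 untreated and 144, 201 and 183 treated. The groups overlapped, and treated arrays lay below the untreated arrays of their number in 3 of 3 pairs (log2 fold change -0.34 ± 0.23, limma adjusted p = 0.605).

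Genes of the replication fork had a median log2 fold change of 0.02 over 14 tested genes, 7 on each side of 0, and none passed in either fit. The sliding clamp gene pcna is the brightest of them. pcna.L gave 4517, 4580 and 3702 untreated and 4747, 4338 and 4214 treated, and pcna.S gave 2313, 2380 and 1914 untreated and 2653, 2533 and 2285 treated. In both copies the groups overlapped, with log2 fold changes of 0.06 ± 0.13 and 0.18 ± 0.13. Their 95% intervals ended at 0.36 and 0.48.

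The fork gene with the smallest p was gins1.S, for a subunit of the GINS complex, which travels with the helicase. It gave 560, 680 and 698 without bhh and 548, 496 and 494 with it. All treated arrays lay below all untreated ones, by a small margin for the arrays numbered 1 (log2 difference -0.03) and by 0.46 and 0.50 for numbers 2 and 3. The log2 fold change was -0.33 ± 0.14 (limma adjusted p = 0.380, or 0.145 with the block), and it passed without both arrays numbered 1 (log2 fold change -0.48, adjusted p = 0.0476). The primase genes, which start each new strand with a short RNA, had log2 fold changes of -0.23 ± 0.15 for the catalytic subunit prim1.S and -0.28 ± 0.20 for prim2.S. Signals of prim1.S were 384, 454 and 395 untreated and 395, 329 and 327 treated, so the groups overlapped at array 1. For prim2.S they were 478, 374 and 333 untreated and 417, 290 and 278 treated, and the groups overlapped although 3 of 3 same-numbered pairs were lower. The 4 tested clamp loader genes lay between -0.01 and 0.09.

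Among cyclins and kinases of G1 and S phase, ccna2.L was the gene that passed with the block. Cyclin A2 activates Cdk2 in S phase and Cdk1 towards mitosis. Untreated arrays 1, 2 and 3 gave ccna2.L signals of 471, 672 and 537, against 664, 1015 and 707 with bhh. The groups overlapped at treated array 1, while same-numbered arrays differed by 0.50, 0.60 and 0.40 on the log2 scale. The means were 560 ± 102 and 796 ± 191 (SD, n = 3 each), or 1.41-fold, with a log2 fold change of 0.50 ± 0.19. The limma adjusted p = 0.327, or 0.0159 with the block (SE 0.12). Without the block it was 0.164 to 0.774 when single arrays were left out. The other 8 tested genes of this class lay between -0.14 and 0.23. They include cdc25a.L, for a phosphatase that activates Cdk2, with 347, 409 and 346 untreated and 490, 361 and 445 treated at the tested probe set (0.23 ± 0.16, 95% interval -0.13 to 0.58). The 3 probe sets of the cyclin E gene ccne1.L had -0.08, -0.04 and 0.16. The last, its brightest, gave 169, 199 and 193 untreated and 194, 217 and 215 treated, and the groups overlapped although 3 of 3 same-numbered pairs were higher.

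**Figure D3:**
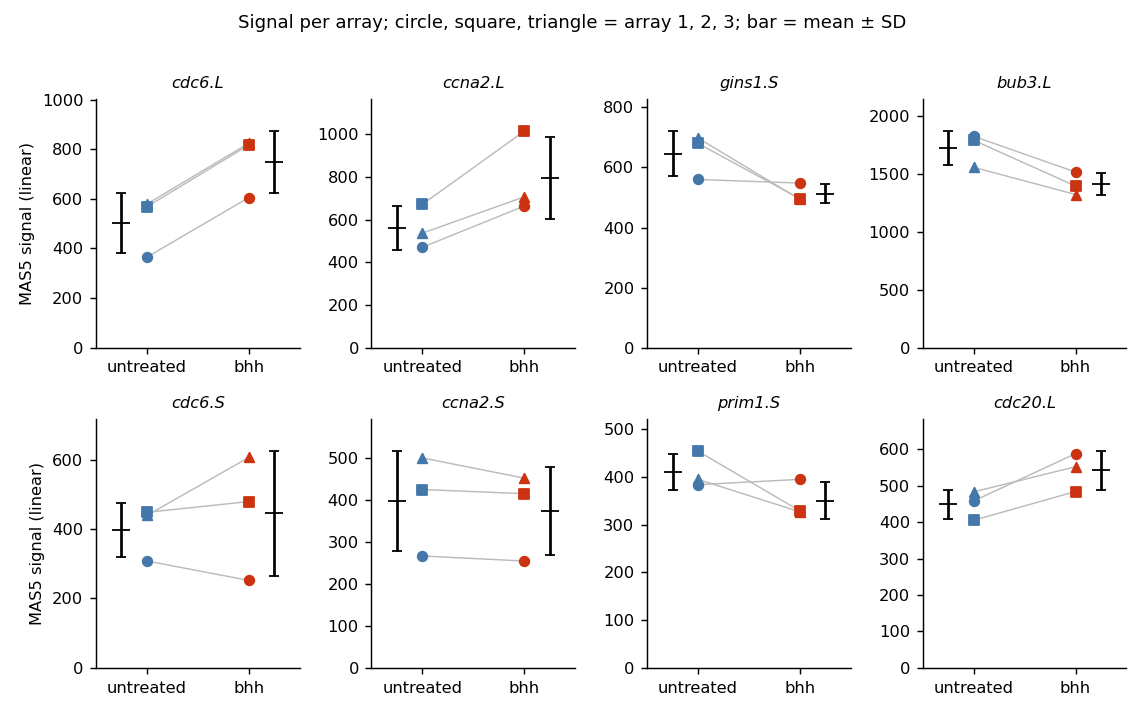
MAS5 signal on a linear scale (y axis) for 8 genes on the untreated (blue) and bhh-treated (red) arrays, with lines joining arrays of the same number and black bars for the mean ± SD of 3 arrays. Treated arrays of cdc6.L and ccna2.L lie above the untreated arrays of their number in 3 of 3 pairs, and those of gins1.S and bub3.L lie below.

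None of the 12 tested genes of mitotic entry passed in either fit, and 11 had an interval within 1.5-fold either way (91.7%, against 43.7% of all tested probe sets). Their log2 fold changes lay between -0.21 and 0.19. Cdk1 is the kinase that drives entry. cdk1.L gave 1553, 1423 and 1403 untreated and 1802, 1232 and 1241 treated, with the treated array 1 highest and the other treated arrays lowest. cdk1.S gave 922, 1284 and 1237 untreated and 1038, 1293 and 1283 treated, and its groups overlapped too. The log2 fold changes were -0.06 ± 0.16 and 0.08 ± 0.16. Of the 6 tested cyclin B genes 3 were above 0 and 3 below. The one with the smallest p, ccnb1.2.S, gave 2388, 2331 and 2454 untreated and 2376, 1905 and 1956 treated (-0.21 ± 0.13, limma adjusted p = 0.566), with treated array 1 within the untreated range. ccnb3.S gave 1518, 1108 and 1260 untreated and 1695, 1331 and 1393 treated (0.19 ± 0.15), higher in 3 of 3 same-numbered pairs. The kinase gene plk1.S, needed for spindle assembly, had log2 fold changes of 0.05, 0.17 and 0.34 at its 3 probe sets. At the brightest its signals were 1624, 1527 and 1822 untreated and 1820, 1850 and 1899 treated, and the groups met at 1822 and 1820. The spindle kinase gene aurka.L gave 517, 438 and 521 untreated and 522, 530 and 533 treated, groups that were separated by 1 unit, between 521 and 522 (0.11 ± 0.14), and aurka.S had 0.09 ± 0.15.

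Kinetochore and checkpoint genes had a median log2 fold change of -0.08, with 4 of 11 above 0 and 7 below. The product of bub3 recruits the checkpoint kinase Bub1 to kinetochores. bub3.L gave 1824, 1790 and 1557 untreated against 1516, 1395 and 1322 treated, with all treated arrays below all untreated ones. The means were 1724 ± 145 and 1411 ± 97.5 (SD, n = 3 each), and the log2 fold change was -0.29 ± 0.13 (limma adjusted p = 0.391, or 0.108 with the block). The gene of that partner kinase, bub1.L, gave 408, 279 and 380 untreated and 355, 264 and 295 treated, overlapping but lower in 3 of 3 same-numbered pairs (-0.22 ± 0.19). cenpm.L, for a protein of the inner kinetochore, gave 105, 126 and 183 untreated and 150, 187 and 201 treated, overlapping and higher in 3 of 3 pairs (0.41 ± 0.24, 95% interval -0.11 to 0.93).

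Mitotic exit genes had a median of 0.02 over 8 tested genes. cdc20.L, for the activator of the anaphase-promoting complex, gave 458, 405 and 483 untreated and 588, 484 and 552 treated, and the groups were separated by 1 signal unit, between 483 and 484 (log2 fold change 0.27 ± 0.14, limma adjusted p = 0.491). cdc23.L, for a subunit of that complex, was dim. Its probe set with the smaller p gave 62.6, 57.6 and 57.1 untreated and 34.3, 38.6 and 40.4 treated, close to the control level of 37.6 in treated explants, and the groups did not overlap. The log2 fold change was -0.65 ± 0.25 (limma adjusted p = 0.327, or 0.217 with the block), and the other probe set had -0.33 ± 0.35 with overlapping groups. cdc34.L was counted in this class, but its product is a ubiquitin-conjugating enzyme best known for the start of S phase. Its 5 probe sets disagreed. The brightest, which stands for cdc34.L in counts by gene, had a log2 fold change of 0.16 ± 0.13 with overlapping groups. Of the others, 1 gave 2140, 2471 and 2335 untreated and 1910, 2036 and 2116 treated, with treated arrays below all untreated ones (-0.20 ± 0.12). Another gave 2384, 2130 and 2490 untreated and 2393, 3132 and 3276 treated, with overlap at array 1 (0.32 ± 0.15). The latter passed with array weights (adjusted p = 0.0459) and without both arrays numbered 1 (0.0468).

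The single centrosome gene was plk4.L, for the kinase that starts centriole duplication. It gave 108, 166 and 174 untreated and 151, 206 and 183 treated, overlapping, with a log2 fold change of 0.29 ± 0.23. A further 22 genes match the rule by name and were put in none of these classes, and 17 of them were tested. Many are best known for other roles, such as transcription (cdk9.L), splicing (cdc5l.L and cdc5l.S) or neurons (cdk5.L), but some also touch the cell cycle, such as cdk7.L, for the kinase that activates Cdk1 and Cdk2. None passed in either fit. The 3 with the smallest p were cdc123.S (-0.41 ± 0.27), for a factor of translation initiation known from yeast, mad2l2.S (-0.27 ± 0.19), for a protein of DNA repair, and plk3.L (0.30 ± 0.22), for a stress-responsive kinase. Without this class the median over the remaining 71 genes was 0.04.

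Both copies of a gene could be compared for 17 pairs, with the .L to .S ratio within each array, treated against untreated. None of the 17 differed in response at an adjusted p under 0.05, with or without the block, and none at an unadjusted p under 0.05; of all 812 pairs tested, 0.369% passed (0.493% with the block) and 7.27% had such an unadjusted p. The intervals were wide for the pairs that held the genes named above. cdc6.S gave 308, 448 and 439 untreated and 252, 479 and 606 treated, with treated arrays both lowest and highest of all (log2 fold change 0.09 ± 0.29). The response of cdc6.L minus that of cdc6.S was 0.50 ± 0.23 (SE, 95% interval -0.02 to 1.01, limma adjusted p = 0.695, or 0.433 with the block). ccna2.S gave 266, 424 and 499 untreated and 254, 414 and 451 treated, with log2 differences of -0.06, -0.04 and -0.15 between same-numbered arrays and overlapping groups. Here .L minus .S was 0.58 ± 0.27 (95% interval -0.02 to 1.18, adjusted p = 0.695, or 0.234 with the block). For mcm4 it was 0.54 ± 0.33, with mcm4.S at -0.20 ± 0.15. The pairs of ccnb2, aurka and aurkb had differences between 0.01 and 0.04. A probe set for one copy may also bind RNA of the other, which was not tested.

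**Figure D4:**
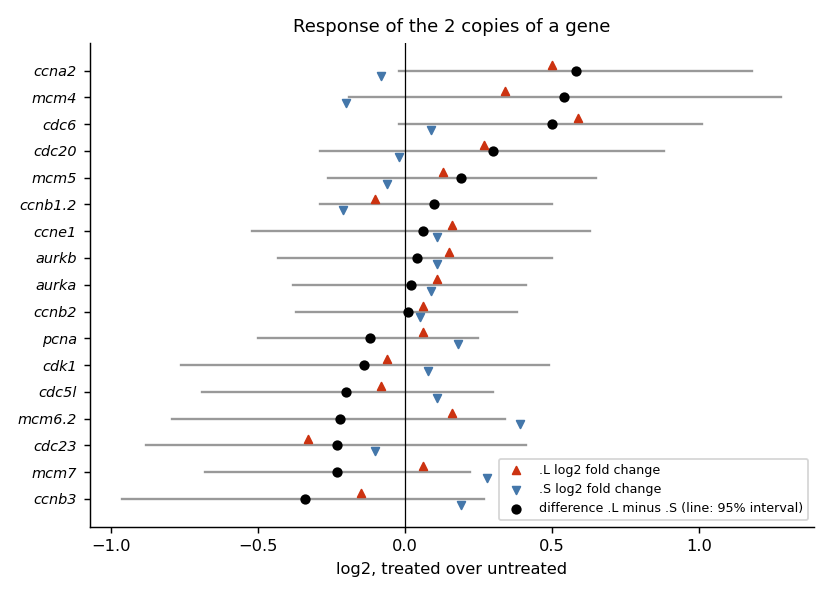
Log2 fold change of the .L copy (red) and the .S copy (blue), and the difference of their responses (black, with its unadjusted 95% interval), for the 17 gene pairs tested, on a log2 scale (x axis). All intervals include 0, and those of cdc6 and ccna2 begin at -0.02.

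Many of these genes differed between array numbers in the same way in both groups. Array 1 was the lowest of its group in both groups for 28 of 88 genes (31.8%, against 26.4% of all tested probe sets), and the highest in both for 16 (18.2%, against 19.8%). Genes low on both arrays numbered 1 include cdk2ap1.S, cdc6.S, ccna2.S, mcm4.L, mcm6.2.S, rfc4.L and ccne1.S, by 0.92 to 0.71 on the log2 scale below the other arrays, while ccnb3.L, cdk9.L, prim2.S and orc3.S were higher by 0.70 to 0.50; these were chosen after their values were seen. cdc6.L and ccna2.L were among the low ones too, with log2 differences of -0.55 and -0.35. The arrays numbered 1 also had the highest GAPDH 3' to 5' signal ratio of their group (4.10 against 3.59 and 3.31 untreated, 4.42 against 3.67 and 3.01 treated). Their b-actin ratio was the lowest of their group instead (0.191 against 0.344 and 0.342 untreated, 0.158 against 0.605 and 0.665 treated), so these measures of RNA or amplification quality did not order the arrays alike. On the arrays numbered 2 and 3 the b-actin ratio was also higher in treated than in untreated samples. Array weights gave the arrays numbered 1 the least weight (0.416 and 0.39). The part of RNA quality in the results was not tested.

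**Figure D5:**
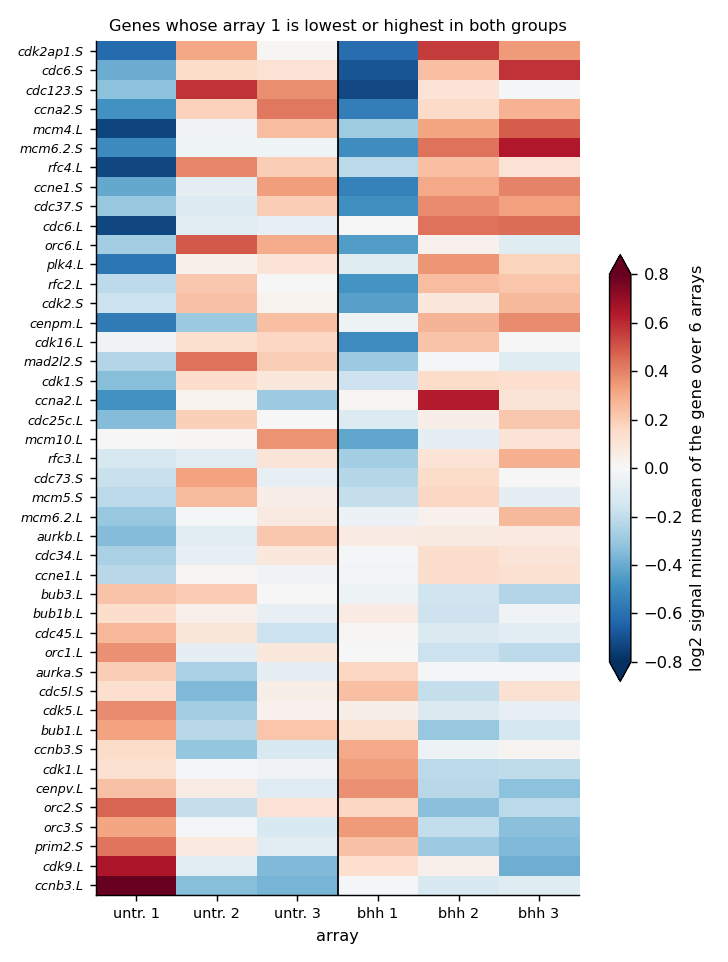
Log2 signal minus the mean of the gene over 6 arrays (colour) for the 44 genes whose array 1 was the lowest or the highest in both groups (rows), on 3 untreated and 3 treated arrays (columns). The upper 28 genes are low on array 1 of both groups and the lower 16 are high.

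Other cell cycle genes, from a list that does not share names with the rule, were tested for 119 genes. Counting the brightest probe set of each, 3 rose and none fell (2.52%). Of all tested probe sets 1.38% were called, 0.74% higher and 0.637% lower. In the list 81 genes were above 0 and 38 below, and the median log2 fold change was 0.08. The risers were ccnd1.L (cyclin D1), cks2.L (a Cdk subunit) and wee1.S, for a kinase that restrains Cdk1. wee1.S gave 421, 438 and 486 untreated and 696, 650 and 730 treated, with all treated arrays above all untreated ones (1.54-fold, log2 fold change 0.63 ± 0.13, limma adjusted p = 0.0498). ccnd1.L had 0.73 ± 0.15 (adjusted p = 0.0353) and cks2.L 0.58 ± 0.12 (0.0408). All 3 calls were lost with scaling to a common median, and single arrays left out gave adjusted p up to 0.143 for ccnd1.L, 0.238 for cks2.L and 0.274 for wee1.S. With the block 9 genes passed, all higher (7.56%, against 6.31% of all tested probe sets, 3.65% higher and 2.66% lower). Among them were the proliferation marker mki67.S (log2 fold change 0.69 ± 0.23, blocked limma adjusted p = 0.0056), the condensin gene smc2.L (0.45 ± 0.14, 0.0338) and cks2.S (0.56 ± 0.14, 0.00494). mki67.S gave 188, 260 and 295 untreated and 292, 409 and 506 treated, overlapping but higher in 3 of 3 same-numbered pairs. The histone chaperone gene nasp.S had a dimmer probe set that fell (log2 fold change -0.82 ± 0.16, limma adjusted p = 0.0337). Its brightest one (-0.39 ± 0.17) and another (-0.49 ± 0.20) were also lower, with groups that did not overlap, and did not pass.

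Some markers of tissues in the explants differed between treated and untreated samples, and others did not pass. Among 6 tested pronephros markers (pax2, pax8, lhx1, mecom, fxyd2 and osr1), 3 fell and 1 rose at the brightest probe set. Their summed signal lay between 1545 and 1921 in untreated and between 449 and 528 in treated explants. The brightest probe set of pax2.L did not pass (-0.55 ± 0.33), but a dimmer one fell (log2 fold change -1.58 ± 0.31, limma adjusted p = 0.0353). Another of pax2.L had -1.10 ± 0.28 and did not pass (0.114). Of 12 somite and skeletal muscle markers 3 fell at the brightest probe set, with sums of 96107 to 109411 and 64937 to 83916. The regulator gene myod1 went the other way, with log2 fold changes of 0.79 ± 0.17 for myod1.S and 0.36 ± 0.21 for myod1.L. For myod1.S the limma adjusted p = 0.0526, or 0.00588 with the block. The markers of that list other than myod1 lay below 0 at their brightest probe sets. Of these probe sets, those of ckm.L (blocked limma adjusted p = 0.00016), tnni2.S (0.00207), tnnc2.S (0.0193), tnnc2.L (0.0243) and tnnt3.S (0.0345) passed with the block but not in the unblocked fit, all lower. A dimmer probe set of ckm.L passed in the unblocked fit (log2 fold change -0.73 ± 0.15, limma adjusted p = 0.0385), and another did not (-0.34 ± 0.12). With the block mylpf.L, des.1.L and myod1.L still did not pass. None of 6 tested epidermis markers passed, with sums of 73175 to 94726 and 57892 to 79747. Nor did any of 4 neural markers without the block (1855 to 2028 and 1526 to 1620). Among these, tubb2b.S was lower without overlap of the groups (-0.42 ± 0.13, limma adjusted p = 0.192, or 0.0243 with the block). Of 4 blood and vessel markers fli1.S fell (sums 296 to 412 and 272 to 319). In that list hba3.L had a log2 fold change of 1.09 ± 0.35 (limma adjusted p = 0.218, or 0.0191 with the block). There gata1.L lay above 0, and tal1.S lay below 0 at its brightest probe set. Of 3 markers listed for endoderm, gata5.S rose (sums 528 to 585 and 920 to 1009). Neither gata5.L (0.69 ± 0.15, limma adjusted p = 0.0609) nor foxa1.S (0.47 ± 0.17, 0.274) passed, although in both all treated arrays lay above all untreated ones. With the block gata5.L passed (limma adjusted p = 0.0056) and foxa1.S did not (0.0847). The sox17a copies were too dim to be tested. The multiciliated cell marker tekt1.L did not pass (125 to 196 and 159 to 190). The pronephros markers fxyd2.S, lhx1.L and mecom.L, bright in untreated explants, had treated means of 26.5, 35.7 and 29.1, under the control level of 37.6. Averaged over all 6 arrays, the markers under that level were gata1.S, hbd.S, hbg1.L, sox17a.L, tp63.L, ncam1.L and nrp1.L. In pooled tissue, fewer cells of a type and less RNA per cell cannot be told apart, and the part of these markers in the values of the replication and mitosis genes was not tested.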

How the data were processed

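RNA of 3 untreated and 3 bhh-treated pools was measured on 1-colour arrays, 1 array per pool. The deposited values are linear intensity signals; per the submitters' processing notes, the authors made them with MAS5, whose version and settings these sources do not state. Of 15491 probe sets that are not controls, the platform's table gave 1 symbol for 9304, several for 195 (4 with a name of the rule, not used) and none for 5992. Symbols were updated by gene ID to RefSeq, assembly Xenopus_laevis_v10.1 (9227 matched, 77 kept the older name). The test, two-sided, was limma 3.58.1 (R 4.3.3; eBayes with a trend) on log2 signals, after the 25% of probe sets with the lowest mean log2 signal had been dropped, and p-values were adjusted with Benjamini-Hochberg over all 11618. Homeolog pairs were fitted as log2 .L minus log2 .S per array, adjusted over 812 pairs.

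The labels do not say whether pools came from separate clutches or animals, so p-values measure the spread between these samples, which may be technical. The number of arrays limits the precision. Same-numbered arrays deviated from their group means together (r = 0.407, 0.178 and 0.298 for numbers 1, 2 and 3, each over 0.1). This was taken as pairing by number. The crossed pairs of numbers 2 and 3 gave 0.173 and 0.147, so these numbers were hardly told apart. Deviations within a group sum to 0, so agreement between the arrays numbered 1 by itself makes the values among numbers 2 and 3 positive on average. The values for numbers 2 and 3 are therefore not separate evidence of pairing. In simulated data for treated against untreated over 11618 probe sets, limma recovered 64% of 100 changed by 1 and 90% of 100 changed by 2 on the log2 scale, with 0.645% false calls among its calls. The simulated noise was independent between arrays, without deviations shared by array number, and its SDs were shuffled over probe sets. Smaller changes were not simulated, and all 88 member genes lay within 1, so these rates do not cover their sizes.

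The members and lists were chosen with earlier results of these data known. Genes were named by a rule: any member past 0.05 with or without the block, the 3 with the smallest p in each class, members with both copies tested, and of the other cell cycle genes those that passed and the 6 with the smallest p. Alternatives were the block, quantile normalization, scaling to a common median, an offset of 32, no filter or a 50% filter, eBayes without trend, array weights, each array left out, the mean of a gene's probe sets, and leaving out the genes put in no class. Leaving out both arrays numbered 1, and counting cdc42 and the genes named after it, were chosen after seeing the data.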

Additional observations from a re-analysis of the deposited data

How the results depend on the processing

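Without a call among replication and mitosis genes in the unblocked fit, the count of their genes stayed at 0 with quantile normalization, median scaling, an offset of 32, no filter, the 50% filter, eBayes without trend, the mean of probe sets, membership without the genes put in no class or with cdc42 and its namesakes, and each array left out. With the replicate block it was 2 genes (1 licensing, 1 of G1 and S phase), or 2 of 106 probe sets against 733 of all 11618. With array weights it was 1 gene (licensing), or 2 of 106 probe sets against 657 of 11618. Without both arrays numbered 1 it was 3 genes (2 licensing, 1 fork), or 4 of 106 probe sets against 581 of 11618. The probe sets called over all features numbered 160, against 733 with the block, 657 with array weights, 95 without trend, 581 without both arrays numbered 1, and 61 to 186 with single arrays left out. Other cell cycle genes called numbered 3, against 9 with the block, 9 with array weights, 0 with median scaling, 0 without trend, 8 without both arrays numbered 1, and 0 to 1 with single arrays left out. Homeolog pairs that differed numbered 3 of 812, and 0 to 3 with single arrays left out. The median log2 fold change of the genes, 0.05, ranged from -0.01 to 0.08 with single arrays left out. Uncalled values near 0 changed sign. The dimmer probe sets of ccne1.L (-0.04 and -0.08) went to 0.13 with array weights and 0.17 without both arrays numbered 1 (the first), and ranged from -0.14 to 0.10 and from -0.17 to 0.04 with single arrays left out. So did cdc34.L probe sets at -0.05 and 0.03 (-0.13 to 0.05 and -0.05 to 0.12) and one of plk1.S at 0.05 (-0.07 to 0.11, -0.05 with array weights, -0.06 without both arrays numbered 1). The cause of these differences was not tested. The 14 genes among the dimmest probe sets were not tested, and 3 arrays a group limit the precision of the rest.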
